A study of Homo sapiens with 24 samples.

Results

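ENZ-resistant prostate cancer cells kept on drug were compared with drug-free parental cells, both exposed to androgen, to ask whether the resistant cells keep the open chromatin sites of androgen-driven cells. The comparison covered 6 of the 24 FAIRE-seq libraries of the series, chosen by their titles: the 3 of parental LNCaP given dihydrotestosterone (LNCaP DHT) and the 3 of the resistant subline RES-A given dihydrotestosterone with enzalutamide (RES-A DHT+ENZ). LNCaP is an androgen-sensitive human prostate cancer line labelled ENZ sensitive. RES-A is a single resistant line raised from it by passaging in rising concentrations of ENZ, and is labelled resistant. All cells spent 3 days in medium with 5% charcoal-stripped serum, to which 10 µM ENZ was added for RES-A in every one of its treatments and never for LNCaP. DHT was given at 10 nM and ENZ at 10 µM, each for 18 h. The 2 groups therefore differed in subline, in ENZ before the treatment and in ENZ during it, and these cannot be told apart from this pair of groups alone. The 3 libraries of a group were biological triplicates according to the methods of the study.

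Dihydrotestosterone (DHT) is a potent natural androgen, and androgens drive the growth of most prostate cancers by changing which enhancers are active. Enzalutamide (ENZ) is an anti-androgen given to patients with advanced prostate cancer, and it opposes the action of androgens on chromatin. FAIRE-seq, in which regulatory elements are isolated with the aid of formaldehyde, sequences the sheared DNA that stays in the aqueous phase after phenol extraction of cross-linked chromatin, which is depleted of nucleosomes. A peak in a FAIRE-seq library is thus read as a site of open chromatin.

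The peak lists of LNCaP DHT held 81865, 274578 and 210950 peaks on the 24 chromosomes in replicates 1, 2 and 3, and those of RES-A DHT+ENZ held 183955, 191690 and 215975. The means were 189131 ± 98192 and 197207 ± 16708 (SD, n = 3), a difference of 8076 peaks per library with an exact two-sided permutation p of 0.9. Replicate 1 of LNCaP DHT stood apart in depth. Its genome-wide background, recovered from the lists as the smallest number of overlapping fragments that the peak caller had expected, was 0.739 per base, against 5.04 and 5.99 in the other LNCaP DHT libraries and 2.18, 2.80 and 3.76 in RES-A DHT+ENZ. Read totals were not used here. The counts and shares that moved most without that library are also given without it, and most comparisons below rest on the 50000 peaks per library with the highest −log10 p of the peak caller (top-ranked peaks), so that libraries of unequal depth entered with equal numbers of peaks. The top-ranked peaks had median fold enrichments over expected background of 5.58, 7.20 and 5.72 in LNCaP DHT and of 9.63, 8.68 and 7.98 in RES-A DHT+ENZ. All 3 RES-A DHT+ENZ libraries lay above all 3 LNCaP DHT libraries.

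Most open sites of androgen-driven LNCaP were also open in drug-treated RES-A. Consensus regions of a group, merged regions that 2 or 3 of its libraries called, numbered 155896 in LNCaP DHT and 164714 in RES-A DHT+ENZ. Of the LNCaP DHT consensus regions, 107540 (69.0%) overlapped a RES-A DHT+ENZ consensus region by at least 1 bp. In the other direction 107823 regions (65.5%) overlapped. Per library, 72.3%, 44.9% and 54.4% of the peaks of LNCaP DHT replicates 1, 2 and 3 lay in the RES-A DHT+ENZ consensus, and 59.3%, 57.1% and 52.6% of the RES-A DHT+ENZ peaks lay in the LNCaP DHT consensus. The library with the fewest peaks had the highest share, and the library with the most peaks had the lowest. The consensus shares moved with depth too. When LNCaP DHT replicate 2 or 3 was left out, so that replicate 1 had to call every region, 85.2% and 83.7% of the LNCaP DHT consensus was kept and 33.9% and 34.7% of the RES-A DHT+ENZ consensus was present in LNCaP DHT. Without replicate 1 the shares were 69.9% and 64.5%.

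The same overlap was counted for the other groups. The share of the LNCaP DHT consensus present in RES-A was 68.6% for RES-A DMSO, 69.4% for RES-A DHT and 70.2% for RES-A ENZ, beside 69.0% for RES-A DHT+ENZ. Within LNCaP it was 82.6% for LNCaP DMSO, 79.4% for LNCaP ENZ and 86.4% for LNCaP DHT+ENZ. In the other direction, 62.3% of the RES-A DMSO, 69.0% of the RES-A DHT, 61.4% of the RES-A ENZ and 65.5% of the RES-A DHT+ENZ consensus regions overlapped the LNCaP DHT consensus. These shares all use the same LNCaP DHT libraries and are given side by side without a test.

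Whole peak sets were also compared between single libraries. The base-pair Jaccard index of top-ranked peaks (base pairs shared over base pairs covered by either library) averaged 0.360 over the 9 pairs of a LNCaP DHT with a RES-A DHT+ENZ library, with a range of 0.269 to 0.420. Within RES-A DHT+ENZ it was 0.647 to 0.659. Within LNCaP DHT it was 0.613 for replicates 2 and 3, but 0.330 and 0.362 for the pairs with replicate 1. By this index those pairs were less alike than replicates 2 and 3 were to any RES-A DHT+ENZ library (0.388 to 0.420). Top-ranked peaks of replicate 1 were shorter, with a median of 209 bp. The medians were 416 and 364 bp in replicates 2 and 3 and 365 to 376 bp in RES-A DHT+ENZ. An index in base pairs depends on peak length as well as on which sites are called, and the part of length was not tested. The difference between groups made up a share of 0.464 of the variance of 1 minus the index, with an exact permutation p of 0.1, the smallest that 3 against 3 libraries can give. With LNCaP DHT replicate 1 left out, this share was 0.630. The mean index of LNCaP DHT replicates 2 and 3 was 0.405 with RES-A DHT+ENZ, 0.434 with RES-A DHT, 0.375 with RES-A ENZ and 0.372 with RES-A DMSO, beside 0.572 with LNCaP DHT+ENZ, 0.522 with LNCaP DMSO and 0.428 with LNCaP ENZ. The value for LNCaP ENZ includes a library of low depth, whose pairs reached down to 0.217.

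The strongest sites of androgen-driven cells were the ones most often kept. Top-ranked peaks of each library were divided into quintiles by rank. In the strongest quintile of LNCaP DHT, 85.4% ± 7.15 (SD, n = 3) of peaks overlapped a top-ranked peak in at least 2 RES-A DHT+ENZ libraries, and 96.0% ± 3.85 overlapped a peak of any rank in at least 2. In the weakest quintile these shares were 37.9% ± 3.71 and 81.3% ± 9.24. The share of peaks found again in both other LNCaP DHT replicates fell alongside, from 92.8% ± 4.81 in the strongest to 28.9% ± 4.91 in the weakest quintile. Without LNCaP DHT replicate 1, an omission chosen after seeing the data, the strongest quintiles of replicates 2 and 3 recurred as top-ranked peaks in RES-A DHT+ENZ at 87.8% and 91.1% and the weakest at 40.8% and 39.2%. The weakest quintiles of these libraries recurred in each other at 53.7% and 54.0%. RES-A DHT+ENZ peaks recurred among their own replicates further down the ranks than peaks of the 3 LNCaP DHT libraries did. This was not so beside LNCaP DHT replicates 2 and 3 alone. These recurred in each other at 98.2% and 98.3% in the second quintile and at 89.4% and 90.0% in the middle one. That count is less strict, since only the other library had to hold the peak. In the second quintile of RES-A DHT+ENZ, 98.2% ± 0.0379 were top-ranked in both other replicates and 73.6% ± 1.26 in at least 2 LNCaP DHT libraries, and in the middle quintile the shares were 86.3% to 87.3% and 59.2% to 61.7%. With replicate 1 left out, so that both remaining LNCaP DHT libraries had to hold the peak, the shares present in LNCaP DHT were 67.9% to 70.8% in the second quintile and 53.7% to 56.1% in the middle one.

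**Figure D1:**
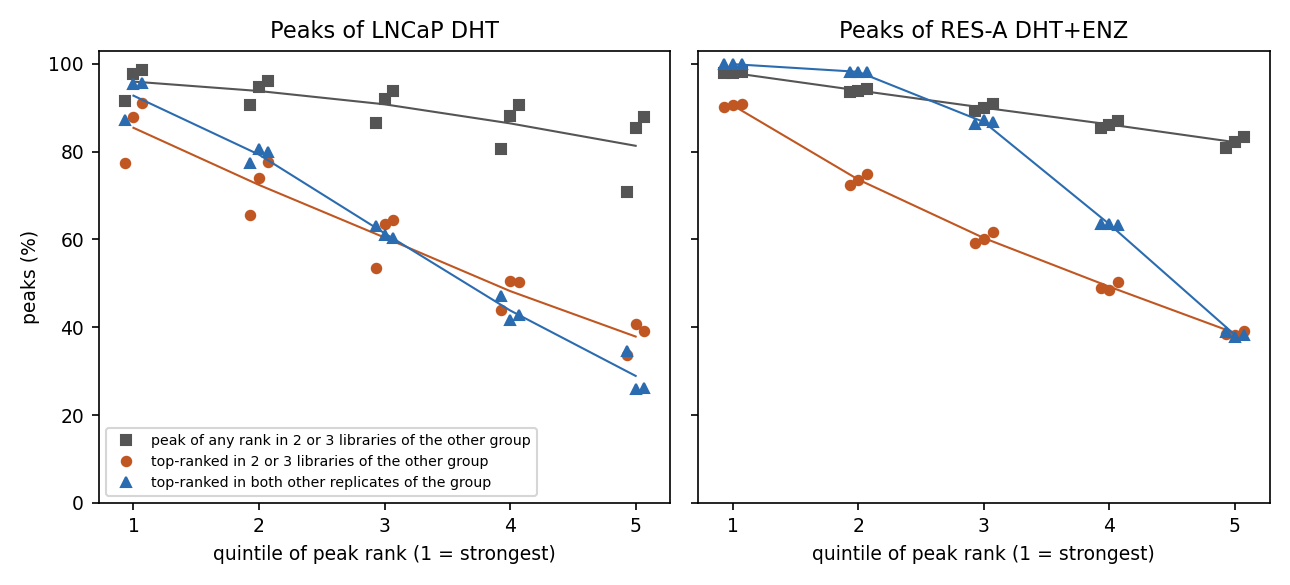
Share of top-ranked peaks (%) of each LNCaP DHT library (left) and each RES-A DHT+ENZ library (right) that recurs, by quintile of peak rank. Points are libraries and lines are means of 3; orange circles (recurrence in the other group) fell from a mean of 85.4% to 37.9% on the left and from 90.6% to 38.7% on the right, and grey squares (a peak of any rank in the other group) stayed above 70% in every library.

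Merging the top-ranked peaks of the 6 libraries gave 90520 regions with a median length of 401 bp. A top-ranked peak was present in all 6 libraries at 20337 regions (22.5%), called kept here. At 8011 regions all 3 RES-A DHT+ENZ libraries and no LNCaP DHT library had one (RES-A-only regions, 8.85% of all regions), and at 5885 regions all 3 LNCaP DHT libraries and no RES-A DHT+ENZ library did (LNCaP-only regions, 6.5%). A region called in 3 libraries against 0 cannot go below p = 0.1 in Fisher's exact test, so these classes are counts without a test. After the kept regions, the largest class was the 16414 regions called in 1 LNCaP DHT library alone. Leaving out LNCaP DHT replicate 1 raised the LNCaP-only regions to 9467 and the RES-A-only regions to 9332.

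**Figure D2:**
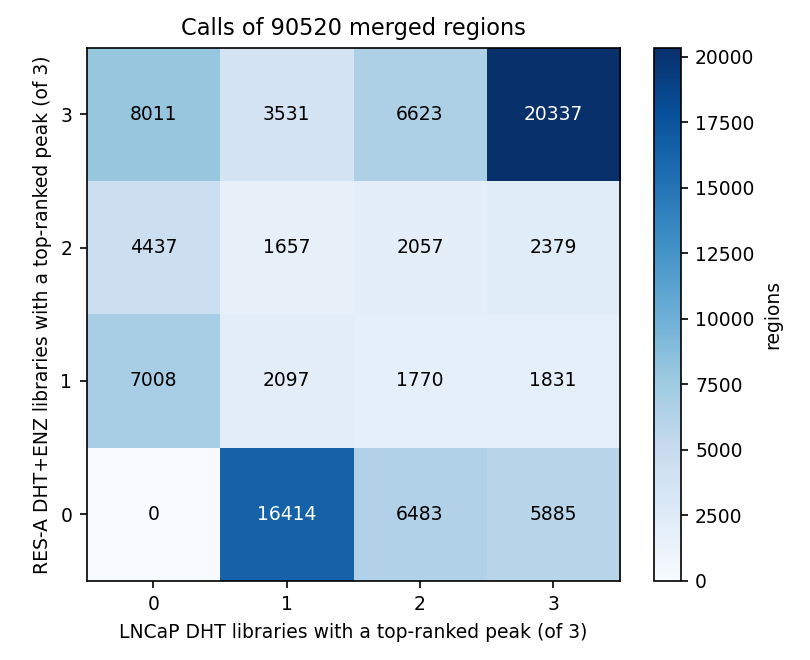
Number of merged regions by how many LNCaP DHT libraries (x axis, 0 to 3) and how many RES-A DHT+ENZ libraries (y axis, 0 to 3) have a top-ranked peak there. The corners hold the 20337 kept, 8011 RES-A-only and 5885 LNCaP-only regions, and the cell for 1 LNCaP DHT library alone holds 16414.

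Most of the LNCaP-only regions had a peak of lower rank in drug-treated RES-A. A peak of lower rank was present in all 3 RES-A DHT+ENZ libraries at 3717 of them (63.2%), and 953 (16.2%) had no peak of any rank in any of the 3. Of the RES-A-only regions, 1717 (21.4%) had no peak of any rank in LNCaP DHT. A peak was present in 2 of the 3 LNCaP DHT libraries at 4102 (51.2%) and in all 3 at 1051 (13.1%). Over all 90520 regions, 88.0% to 88.8% had a peak of any rank in each RES-A DHT+ENZ library. In LNCaP DHT replicates 1, 2 and 3 the level was 66.5%, 91.0% and 88.6%, lowest in the library of low depth. These levels are per library, and how often all regions had a peak in all 3 libraries or in none was not counted. Kept regions had the highest median fold enrichments, at 6.33, 8.36 and 6.68 in LNCaP DHT and 11.0, 9.96 and 9.21 in RES-A DHT+ENZ. Their choice favours this, since it asked for a top-ranked peak in all 6 libraries. LNCaP-only regions had medians of 5.54, 6.95 and 5.42 in LNCaP DHT, and RES-A-only regions had medians of 9.43, 8.50 and 7.77 in RES-A DHT+ENZ.

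The same count was made for 2 simpler comparisons that share the LNCaP DHT libraries. RES-A given DHT without ENZ differed from LNCaP DHT at 6447 regions called only in RES-A DHT (7.26%) and 4647 called only in LNCaP DHT (5.23%), of 88829 regions. LNCaP given ENZ with DHT differed from it at 1055 regions (1.30%) and 1126 regions (1.39%) of 80961. Kept in all 6 libraries were 21435 regions in the comparison with RES-A DHT and 25075 in that with LNCaP DHT+ENZ, beside the 20337 with RES-A DHT+ENZ.

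The other 6 groups, which had no part in choosing the regions, showed where the separated regions were open. LNCaP-only regions had a top-ranked peak in 71.6%, 68.1% and 66.6% of cases in LNCaP DHT+ENZ replicates 1, 2 and 3, in 59.7%, 64.2% and 48.7% in LNCaP DMSO, and in 31.2%, 52.1% and 52.4% in LNCaP ENZ, whose replicate 1 was the second library of low depth. In RES-A the values were 22.7%, 22.6% and 20.2% in RES-A DHT, 4.35%, 5.15% and 4.13% in RES-A DMSO, and 4.26%, 3.25% and 5.08% in RES-A ENZ. Over all regions, the libraries of every group other than LNCaP ENZ called between 50.5% and 55.1%. The LNCaP-only regions were thus called above that level in LNCaP DHT+ENZ and far below it in RES-A, and within RES-A they were called most in the libraries with DHT and no ENZ.

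RES-A-only regions were called in 89.9% ± 0.906 (SD, n = 3) of cases in RES-A DMSO, 91.8% ± 1.90 in RES-A ENZ and 73.8% ± 2.66 in RES-A DHT. In LNCaP they were called in 17.5% to 23.3% of cases under DMSO, 20.5% ± 0.959 under ENZ and 16.3% ± 1.78 under DHT+ENZ. The 3 RES-A DHT libraries (71.8% to 76.8%) lay below all RES-A DMSO and RES-A ENZ libraries (89.3% to 94.0%). No test was made of these shares, since the regions were chosen for calls in libraries of the same sublines.

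**Figure D3:**
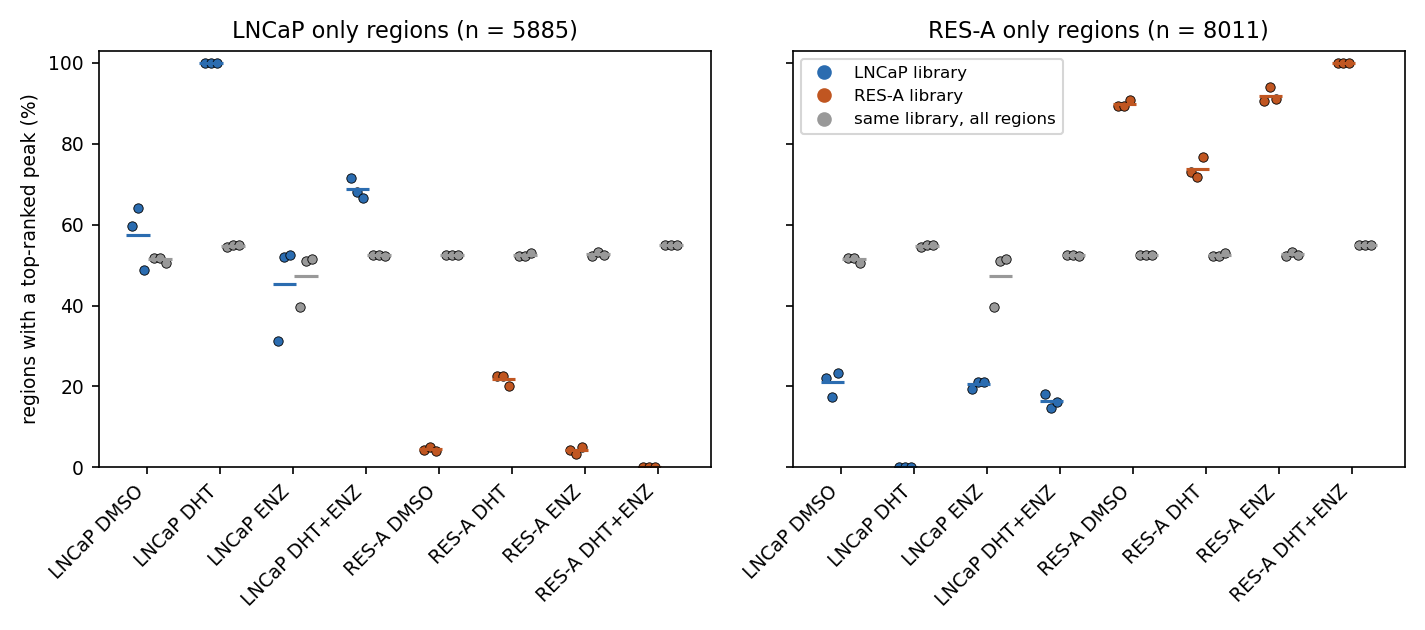
Share of LNCaP-only regions (left) and RES-A-only regions (right) with a top-ranked peak (%), for each of the 24 libraries by group. Blue and orange points are LNCaP and RES-A libraries, grey points give the share over all merged regions in the same library and bars are means of 3; the groups at 0% and 100% are those that chose the regions.

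Only a small part of the separated regions was particular to 1 group of libraries. Of the 8011 RES-A-only regions, 3724 (46.5%) were called in all 12 RES-A libraries and 1706 (21.3%) were called in those 12 and in no LNCaP library of 12. A top-ranked peak in the 3 RES-A DHT+ENZ libraries and in none of the other 21 was found at 8 regions. Of the 5885 LNCaP-only regions, 3564 (60.6%) were called in no RES-A library, 515 (8.75%) were called in all 12 LNCaP libraries and no RES-A library, and 425 (7.22%) were called in the 3 LNCaP DHT libraries alone. A further 558 (9.48%) were called in all 3 RES-A DHT libraries and in no RES-A DMSO or RES-A ENZ library. The 12 LNCaP libraries include LNCaP ENZ replicate 1, of low depth, which called 31.2% of LNCaP-only and 39.5% of all regions. Counts that need a call in all 12 are therefore limited by that library. How often all regions show these patterns was not counted, so the shares have no level to be set against.

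The stricter LNCaP-only regions, the 953 with no peak of any rank in drug-treated RES-A, showed the same with peaks of any rank. They had a peak in 37.0% to 40.1% of cases in the RES-A DHT libraries, in 4.83% to 5.46% in RES-A DMSO and in 4.30% to 9.55% in RES-A ENZ, while all regions had one in 86.0% to 90.5% in these 9 libraries. In LNCaP DHT+ENZ they had one in 98.5% to 99.7% of cases, in LNCaP DMSO in 80.8% to 99.7% and in LNCaP ENZ in 28.4% to 92.5%. All regions had one in 88.9% to 91.6% in LNCaP DHT+ENZ, 81.7% to 92.6% in LNCaP DMSO and 47.1% to 90.9% in LNCaP ENZ. The lowest LNCaP ENZ values were those of its library of low depth. The 1717 stricter RES-A-only regions had a peak of any rank in 99.8% or more of cases in each of the other 9 RES-A libraries. In LNCaP they had one in 15.9% to 38.3% under DMSO, 6.81% to 36.9% under ENZ and 19.6% to 30.7% under DHT+ENZ.

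The 4 RES-A-only regions named here had the highest fold enrichment in their lowest library among those with no peak of any rank in LNCaP DHT. Positions are in hg19. The region chr21:47738009-47738384 had fold enrichments of 17.8, 16.2 and 16.7 in RES-A DHT+ENZ replicates 1, 2 and 3. The region chr19:4449159-4449778 had 17.7, 17.5 and 14.7, chr3:14469700-14470061 had 16.5, 17.3 and 14.5, and chr1:204666936-204667398 had 16.7, 15.2 and 14.4. All 4 were top-ranked in all 12 RES-A libraries. Those on chromosomes 19, 3 and 1 had no peak of any rank in any LNCaP library, whereas the one on chromosome 21 had a peak in all 3 LNCaP DMSO, 2 LNCaP ENZ and all 3 LNCaP DHT+ENZ libraries, 1 of them top-ranked. At that region the LNCaP DHT libraries were the only group of LNCaP with no peak. The lack of peaks in LNCaP DHT is by the choice of these regions.

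The corresponding LNCaP-only regions had lower fold enrichments. Over all regions too, medians were lower in LNCaP DHT, at 5.18, 6.03 and 4.89 against 8.04, 7.28 and 6.65 in RES-A DHT+ENZ. The lower values are thus not particular to these 4 regions. The region chr5:167710077-167710608 had fold enrichments of 10.7, 10.7 and 10.1 in LNCaP DHT replicates 1, 2 and 3. The region chr17:7806848-7807370 had 9.60, 11.9 and 10.4, chr20:32851805-32852562 had 8.94, 10.8 and 9.30, and chr16:16036719-16037105 had 8.66, 11.6 and 9.67. Each of the 4 had a peak of some rank in all 3 RES-A DHT libraries and in no RES-A ENZ library. In RES-A DMSO only the region on chromosome 20 had one, in 1 library. The regions were top-ranked in 3, 3, 3 and 2 of the LNCaP DHT+ENZ libraries in the order given. The lack of peaks in RES-A DHT+ENZ is by the choice of these regions.

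Regions that DHT opened in LNCaP were next followed into RES-A. DHT-opened regions had a top-ranked peak in all 3 LNCaP DHT and no LNCaP DMSO library, and numbered 1803 of 84248 regions merged from those 6 libraries. Most were not closed without DHT, since 90.0% on average had a peak of lower rank in LNCaP DMSO, so the term means a rise in rank. Drug-treated RES-A had a top-ranked peak at 17.0%, 17.0% and 16.7% of them in replicates 1, 2 and 3. RES-A given DHT without ENZ had one at 40.9%, 39.4% and 38.4%. The values were 7.60%, 6.71% and 7.10% in RES-A DMSO and 8.99%, 7.93% and 7.99% in RES-A ENZ. In LNCaP DHT+ENZ they were 38.4%, 22.0% and 24.8%, and in LNCaP ENZ 7.27% to 11.8%.

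RES-A DHT+ENZ thus lay between the RES-A groups without DHT and RES-A with DHT alone, with no overlap of libraries. It was higher than RES-A DMSO by 9.74 percentage points and than RES-A ENZ by 8.58, and its difference from RES-A DHT was -22.7 points. Its difference from LNCaP DHT+ENZ was -11.5 points, and the lowest of those libraries, 22.0%, was above every RES-A DHT+ENZ library. LNCaP DHT+ENZ was also higher over all 84248 regions, at 57.2% to 58.0% against 47.9% to 48.7% in RES-A DHT+ENZ, and at regions top-ranked in LNCaP both with and without DHT, at 98.1% ± 0.417 against 85.5% ± 0.834. Each of the 4 comparisons had an exact two-sided permutation p of 0.1, which is the smallest that 3 against 3 libraries allow and is 0.1 after Benjamini-Hochberg adjustment, so none passed 0.05. Without LNCaP DHT replicate 1 there were 3170 DHT-opened regions, of which RES-A DHT+ENZ had a top-ranked peak at 15.9% to 16.1%, and the 4 differences were 7.99, 7.19, -19.0 and -10.1 points in the same order. Of the 1803 regions, 195 (10.8%) were top-ranked in all 3 RES-A DHT+ENZ libraries and 1382 (76.7%) in none. A peak of any rank was present in all 3 at 1035 (57.4%) and in none at 399 (22.1%). How often all 84248 regions showed these patterns was not counted, so these 4 shares have no level to be set against. Counting peaks of any rank kept the order within RES-A. The means were 67.5% in RES-A DHT+ENZ, 85.9% in RES-A DHT, 53.8% in RES-A ENZ and 48.3% in RES-A DMSO. In LNCaP they were 99.1% in LNCaP DHT+ENZ and 67.3% in LNCaP ENZ, with a range of 19.0% to 92.0% in the latter. LNCaP DMSO, which helped to choose the regions, had 90.0%, above RES-A DHT. At the 23198 regions that were top-ranked in LNCaP both with and without DHT, RES-A DHT+ENZ had a top-ranked peak in 85.5% ± 0.834 of cases, RES-A DHT in 86.5% ± 0.657, RES-A ENZ in 83.1% ± 0.391 and RES-A DMSO in 82.3% ± 0.265, a narrower spread than at the DHT-opened regions.

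**Figure D4:**
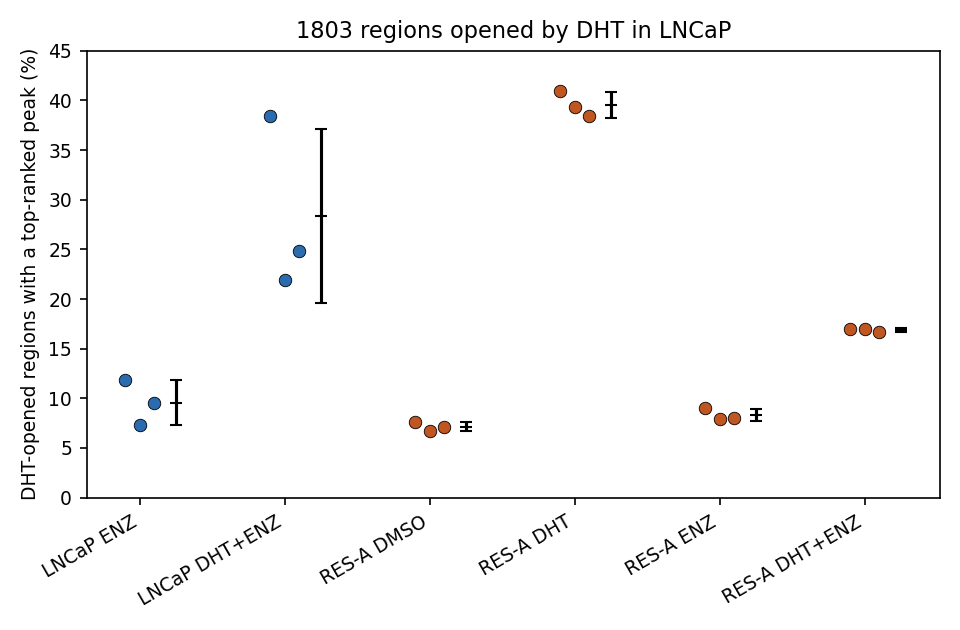
Share of the 1803 DHT-opened regions with a top-ranked peak (%) in each library of the 6 groups that did not choose them. Points are libraries and bars show the mean and SD of 3; the RES-A DHT+ENZ libraries, at 16.7% to 17.0%, lie above the RES-A DMSO and RES-A ENZ libraries and below the RES-A DHT and LNCaP DHT+ENZ libraries.

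At shared regions the level of enrichment was compared. Shared regions had a peak of any rank in all 6 libraries and numbered 48143. Their log2 fold enrichment was quantile-normalised and compared with limma. At a Benjamini-Hochberg adjusted p under 0.05 over all shared regions, 2672 were higher in RES-A DHT+ENZ (5.55%) and 2909 were lower (6.04%). Of these, 436 were higher and 503 lower by 2-fold or more. The middle 90% of log2 differences ran from -0.66 to 0.64, and the median standard error was 0.18. In bulk chromatin, fewer cells with an open site and a site less open in each cell cannot be told apart. Among the regions top-ranked in all 6 libraries, 540 of 20337 were higher (2.66%) and 346 lower (1.70%) in the fit over all 48143. The counts depended on single libraries. Without LNCaP DHT replicate 1, 68497 regions could be tested, of which 10416 were higher and 9515 lower. Leaving out RES-A DHT+ENZ replicate 1, 2 or 3 gave 565, 538 and 689 higher and 846, 779 and 955 lower, and leaving out LNCaP DHT replicate 2 or 3 gave 1995 and 1952 higher and 1727 and 1872 lower. The log2 fold enrichment of LNCaP DHT replicate 1 correlated at r = 0.52 with each of the other LNCaP DHT libraries across shared regions, which are not independent replicates. Those 2 correlated at 0.85, the RES-A DHT+ENZ libraries at 0.87 to 0.89 and LNCaP DHT replicates 2 and 3 with RES-A DHT+ENZ at 0.59 to 0.63.

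The 4 shared regions with the smallest adjusted p that were higher in RES-A DHT+ENZ are given with the fold enrichment of the lists and the limma difference. The region chr7:75240864-75241567 had fold enrichments of 4.03, 2.81 and 2.72 in LNCaP DHT and of 16.6, 16.4 and 14.5 in RES-A DHT+ENZ, a log2 difference of 1.97 (SE 0.18, limma adjusted p = 0.00101). The region chr6:33950801-33951320 had 3.45, 4.47 and 3.58 against 20.8, 17.9 and 14.1, a log2 difference of 1.94. At chr16:19128032-19128443 the values were 4.01, 3.64 and 2.86 against 16.1, 14.6 and 13.5, and at chr17:17349405-17349906 they were 4.03, 4.14 and 3.43 against 16.6, 14.5 and 14.8, with log2 differences of 1.76 and 1.65. The groups did not overlap at any of the 4, which the choice by smallest adjusted p in these same libraries favours. All 4 were top-ranked in every RES-A library. The region on chromosome 17 was also top-ranked in all 3 LNCaP DMSO and all 3 LNCaP DHT+ENZ libraries. LNCaP DHT was thus low there among LNCaP groups, which the choice of regions low in LNCaP DHT favours. The region on chromosome 16 was top-ranked in no LNCaP library.

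Of the 4 shared regions lower in RES-A DHT+ENZ, the first, chr19:58951448-58951911, had fold enrichments of 10.7, 17.3 and 13.3 in LNCaP DHT and of 5.66, 4.74 and 3.36 in RES-A DHT+ENZ, a log2 difference of -1.97 (SE 0.16, limma adjusted p = 0.00101). At chr19:58095287-58095608 the values were 9.78, 13.2 and 9.73 against 5.97, 5.00 and 5.46. At chr2:109626237-109626744 they were 8.74, 12.7 and 11.5 against 5.97, 4.47 and 3.57, and at chr7:73613649-73614218 they were 8.89, 12.1 and 9.10 against 6.18, 4.74 and 4.41. The log2 differences were -1.37, -1.60 and -1.35. No library of one group reached the range of the other, which again the choice by adjusted p favours. The regions on chromosomes 2 and 7 were top-ranked in all 3 RES-A DHT libraries and in no RES-A ENZ or RES-A DMSO library. Those on chromosome 19 were top-ranked in no RES-A DHT library. All 4 kept their direction in 11 alternative fits each, as did the 4 higher regions, of which that on chromosome 6 entered 10 fits, and the highest adjusted p of limma over these fits was 0.0163.

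The position of the differing sites along the genome was not even. RES-A-only regions made up 15.3% of the regions on chromosome 21, 13.6% on chromosome 6, 12.7% on chromosome 17 and 12.5% on chromosome 1, against 8.85% overall. LNCaP-only regions made up 11.2% on chromosome 8, 10.2% on chromosome 4 and 9.73% on chromosome 15, against 6.5% overall. Without LNCaP DHT replicate 1, also chosen after seeing the data, RES-A-only regions made up 18.8%, 18.1% and 15.2% on chromosomes 21, 6 and 17, against 11.6% of all regions, and LNCaP-only regions made up 19.7%, 18.4% and 18.1% on chromosomes 8, 4 and 15, against 11.8%. In 307 windows of 10 Mb, the log2 share of top-ranked peaks was compared with limma. The share was higher in RES-A DHT+ENZ in 101 windows (32.9%) and lower in 108 (35.2%) at an adjusted p under 0.05.

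The 3 windows with the largest gain in RES-A DHT+ENZ lay on chromosome 6. The window chr6:80000001-90000000 held 0.110%, 0.0600% and 0.0520% of the top-ranked peaks of the LNCaP DHT libraries and 0.200%, 0.202% and 0.212% of those of RES-A DHT+ENZ, 2.89 times as much (limma adjusted p = 0.00115). In chr6:40000001-50000000 the mean shares were 0.219% ± 0.0359 and 0.488% ± 0.00200 (SD, n = 3), 2.24 times as much, and in chr6:50000001-60000000 they were 0.141% ± 0.0216 and 0.310% ± 0.00693, 2.20 times as much. The windows with the largest loss were chr13:60000001-70000000, with 0.195% ± 0.0240 in LNCaP DHT and 0.0327% ± 0.00231 in RES-A DHT+ENZ, chr4:130000001-140000000, with 0.246% ± 0.0159 and 0.0867% ± 0.00416, and chr8:10000001-20000000, with 0.399% ± 0.0167 and 0.148% ± 0.0140. The groups overlapped in none of the 6 windows, and the adjusted p of limma was at most 0.00115. Both are favoured by the choice of the largest differences among windows past the threshold.

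The local background of the peak caller moved with these windows. It is the number of fragments expected at a peak from the reads around it. It was taken here relative to the genome-wide background of its library, as the median over the shared regions in a window. As the genome-wide background is the smallest value of a library, the relative value cannot fall below 1. From 22.6% to 33.3% of the peaks of each of the 6 libraries lay at that floor. A value of 1.0 is therefore a lower limit, and a difference between groups that both lie at the floor cannot be seen. In the 3 windows of chromosome 6 the relative background averaged 1.0 in LNCaP DHT and 1.76 to 2.01 in RES-A DHT+ENZ. In the windows of chromosomes 13, 4 and 8 it averaged 1.49, 1.48 and 1.61 in LNCaP DHT and 1.0, 1.13 and 1.0 in RES-A DHT+ENZ. Across 306 windows with at least 20 shared regions, the log2 difference in share and the log2 difference in relative background had a Pearson r of 0.87 and a Spearman rho of 0.85, both read from the same 6 libraries. In the 117 windows where the backgrounds of the groups were within 1.1-fold, 7 windows were higher and 62 lower in RES-A DHT+ENZ. In the 149 windows with more background in RES-A DHT+ENZ, 93 were higher and 7 lower. In the 41 windows with less, 1 was higher and 39 were lower. Each library entered with 50000 peaks, so a higher share in some windows goes with a lower share in others. The 62 lower windows therefore need not mean fewer open sites there. The part of local background in the window differences was not tested, and DNA copy number was not analysed here.

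**Figure D5:**
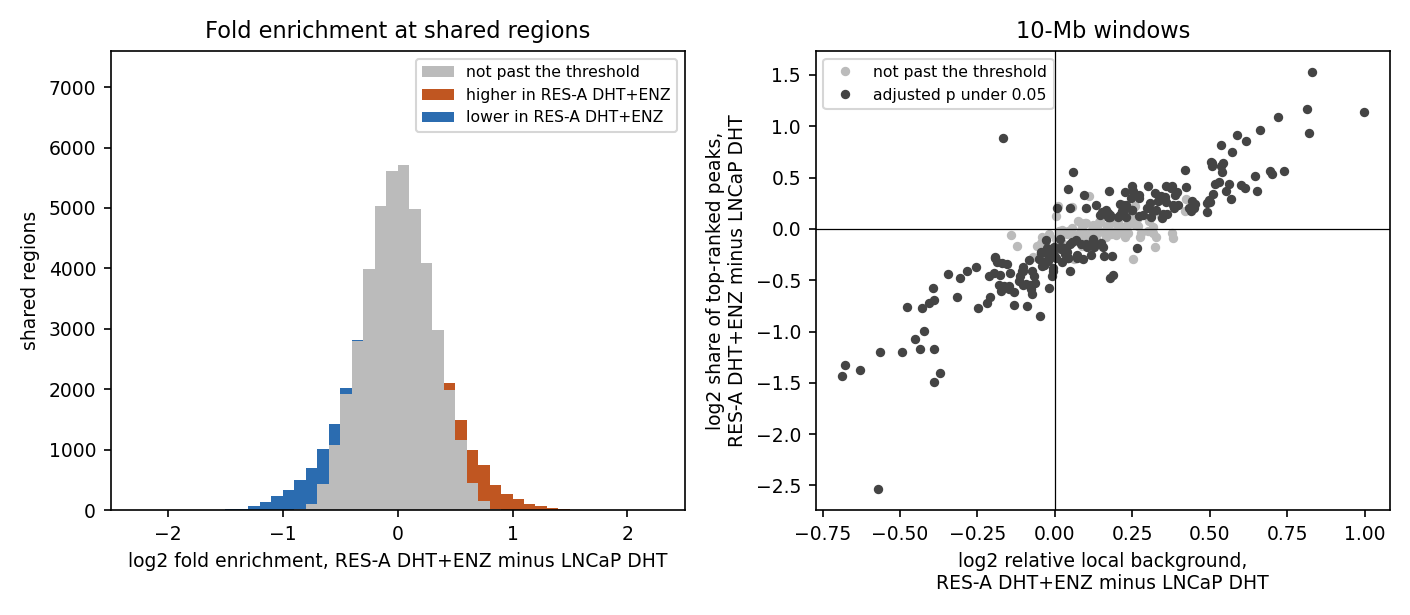
Left, number of shared regions by the difference in log2 fold enrichment (RES-A DHT+ENZ minus LNCaP DHT, bins of 0.1), with the 2672 regions that were higher in orange and the 2909 that were lower in blue. Right, difference in log2 share of top-ranked peaks against the difference in log2 relative local background for 306 windows of 10 Mb, which rose together (r = 0.87).

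The separated regions followed the background in part. In windows with backgrounds within 1.1-fold, 2283 of 32642 regions were RES-A-only (6.99%) and 2509 were LNCaP-only (7.69%). In windows with more background in RES-A DHT+ENZ the shares were 11.2% and 4.32%, and in windows with less they were 4.07% and 12.4%. RES-A-only regions outnumbered LNCaP-only regions in the whole genome but not in the windows of like background, a restriction chosen after seeing the data, nor in the whole genome without LNCaP DHT replicate 1. At shared regions in those windows, 4.75% were higher and 6.60% lower in RES-A DHT+ENZ.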

How the data were processed

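From single-end reads of 50 bp the authors made alignments to hg19 with BWA (0.7.8-r455 per the submitters' processing notes), marked duplicates with Picard (1.118) and called peaks per library with MACS2 (2.1.0). Its options and any control library are not given in the sources used here. The deposited lists give for each peak the pileup at its summit (a signal, not scaled between libraries), the −log10 of p and q, and a fold enrichment over expected pileup. Peaks on 24 chromosomes were used. Local background was computed as (pileup + 1) / fold − 1, which assumes that 1 was added to both, and its smallest value in a library served as the genome-wide background.

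Groups and replicate numbers came from sample titles. Regions were merged by overlap of at least 1 bp. Fold enrichment at shared regions (log2, quantile normalisation, trended variance) and shares of peaks per window (log2, 0.5 peaks added to each window, windows averaging 20 peaks or more) were tested with limma 3.58.1 in R 4.3.3, with Benjamini-Hochberg adjustment over all regions or windows and a threshold of 0.05. Other group differences used exact permutation tests in Python 3.11.15. The chi-square test of the study counts sites as replicates and was not repeated. In simulated data with a single SD of 0.204, 98% of 100 shared regions changed by 1 on the log2 scale were recovered among 48143. There, 13 unchanged regions were called. With a single SD of 0.0618, 100% of 31 windows changed by 1 were recovered among 307, with 4 unchanged windows called. Recovery with a library that stands apart from its group, as LNCaP DHT replicate 1 does, was not tested.

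Named were, per direction, the 4 separated regions with no peak of any rank in the other group and the highest fold enrichment in their lowest library, the 4 shared regions with the smallest adjusted p (ties by size) and the 3 windows with the largest difference past the threshold. The comparison, groups of regions and lists were chosen with earlier results of these data known. Same-numbered libraries did not deviate together at shared regions (correlations of 0.033, -0.013 and -0.0017), so numbers were not taken as pairs. Peaks ran past the GRCh38 end of the chromosome on 15 of 24 chromosomes and the reference at hand was of that build, so genes, sequence motifs and cell type markers at the regions were not analysed here. Alternatives were a q of 0.01, all deposited peaks or 25000 top-ranked ones, a consensus of all 3 libraries, 50% overlap, 500-bp tiles, 5-Mb windows, other scalings, a replicate block and leaving out each library. Weighting of libraries, restriction to windows of like background, and quintiles and chromosomes without LNCaP DHT replicate 1 were added after seeing the data.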

Additional observations from a re-analysis of the deposited data

How the results depend on the processing

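Regions called in one group alone depended most on how a call was defined. RES-A-only regions numbered 4245 with 25000 top-ranked peaks, 21212 with all deposited peaks, 14266 in 500-bp tiles, 1717 where no peak of any rank was allowed in the other group and 2283 in windows of like background. LNCaP-only regions numbered 3017 with 25000 peaks, 5831 with all deposited peaks, 8799 in 500-bp tiles, 953 with no peak of any rank and 2509 in windows of like background. Leaving out each library gave 9054 to 9705 RES-A-only and 6401 to 9467 LNCaP-only regions. Of the RES-A DHT+ENZ consensus, 40.9% was present in LNCaP DHT when all 3 libraries had to call a region, and 33.9% to 70.4% with 1 library left out, while 62.7% to 85.2% of the LNCaP DHT consensus was kept. The difference in peaks per library changed sign, at -45557 without LNCaP DHT replicate 1 and -1308 without RES-A DHT+ENZ replicate 3, within a range that reached 50799.

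LNCaP-only regions were called in 64.3% of cases in LNCaP DHT+ENZ with 25000 peaks, and in 83.3% in LNCaP DHT+ENZ and 23.9% in RES-A DHT with all peaks. RES-A-only regions were called in 18.2% in LNCaP DHT+ENZ and 69.7% in RES-A DHT with 25000 peaks, and in 20.2% and 78.0% with all peaks. With each library left out, LNCaP-only regions were called in 61.6% to 70.8% in LNCaP DHT+ENZ and 18.8% to 25.1% in RES-A DHT, and RES-A-only regions in 15.3% to 22.6% in LNCaP DHT+ENZ and 68.4% to 75.1% in RES-A DHT.

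Shared regions higher and lower in RES-A DHT+ENZ numbered 4191 and 5295 with median centring, 7610 and 7491 with pileup over the genome-wide background, 367 and 329 when the fit and the adjustment were made again on the 20337 regions top-ranked in all 6 libraries alone, and 5724 and 5551 with library weights. With each library left out they ranged from 538 to 10416 and from 779 to 9515, highest without LNCaP DHT replicate 1 and lowest without RES-A DHT+ENZ replicate 2. In 5-Mb windows, of which there are more, 167 were higher and 193 lower. With each library left out, 81 to 102 of the 10-Mb windows were higher and 96 to 108 lower. The cause of these shifts was not tested, apart from the numbers tested, which are smaller or larger by construction.

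With the replicate block 2603 shared regions were higher and 2638 lower, beside 2672 and 2909 without it, and 94 and 101 windows, beside 101 and 108. No named region or window lost the threshold with the block, and an exact p of 3 pairs cannot go below 0.25. Differences at DHT-opened regions kept their direction and all named regions and windows kept direction and threshold in the alternatives run for them. At 3 against 3 libraries no exact test can pass 0.05. The part of the low depth of LNCaP DHT replicate 1 in which sites were called was not tested.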

Other observations

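Regions that lost rank with DHT in LNCaP were looked at after the data had been seen. They were top-ranked in all 3 LNCaP DMSO and no LNCaP DHT library and numbered 1450. RES-A DHT+ENZ had a top-ranked peak at 58.0% ± 0.737 (SD, n = 3) of them, RES-A DHT at 44.1% ± 2.24, RES-A ENZ at 64.2% ± 2.49 and RES-A DMSO at 66.4% ± 0.744. The RES-A DHT+ENZ libraries, at 57.2% to 58.5%, lay above all RES-A DHT libraries, at 42.3% to 46.6%, and below all RES-A DMSO and RES-A ENZ libraries, at 61.3% to 67.2%, so that drug-treated RES-A stood between the same groups as at the DHT-opened regions, in the opposite direction. LNCaP DHT+ENZ had a top-ranked peak at 62.4% ± 3.04 of them. Over all regions merged from LNCaP DHT and LNCaP DMSO, the share was 47.9% to 48.7% in RES-A DHT+ENZ and 49.0% to 49.6% in RES-A DHT. It was 46.8% to 47.7% in RES-A DMSO and RES-A ENZ, and 57.2% to 58.0% in LNCaP DHT+ENZ. No test was made of these values.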
